A study of Homo sapiens with 12 samples.

Results

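The FOS and JUN family was described here through the transcripts of 7 genes, FOS, FOSB, FOSL1, FOSL2, JUN, JUNB and JUND, in MiaPaCa-2 cells with lowered expression of 3 genes of citrate handling. The genes were found by symbol among the 70116 gene identifiers of the count table, each matched 1 identifier, and all 7 were among the 16197 genes with enough counts to be tested. The family was selected on its measured values, because FOSB and FOS were among the transcripts that rose most against the control siRNA, so the values of FOS and FOSB are given as a description, with no test. FOSL1, FOSL2, JUN, JUNB and JUND belong to the family by name and structure, and their differences were tested.

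FOS and JUN proteins are transcription factors of the basic leucine zipper class. They pair through the zipper to form the factor called AP-1, which binds DNA at the element TGACTCA and at related elements. FOS proteins need a partner from another family, usually a JUN protein, while JUN proteins can also pair with each other. FOS, FOSB, JUN and JUNB are immediate early genes, whose transcripts appear quickly and without new protein synthesis when growth factor or stress signals reach the nucleus, and are short-lived. FOSL1, also called FRA-1, is known as a gene kept high by ERK signalling in carcinoma cells.

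MiaPaCa-2 is an established human pancreatic carcinoma line, and the cells of all 4 groups were transfected with small interfering RNA (siRNA), short duplexes that lower a matching transcript. Cells labelled siControl received the control siRNA. SiSLC25A1 cells received siRNA to the carrier that exports citrate from mitochondria, siACLY cells siRNA to ATP citrate lyase, the cytosolic enzyme that makes acetyl-CoA from citrate, and siACO1 cells siRNA to cytosolic aconitase, which also binds iron-responsive elements in transcripts. Each group had 3 libraries of poly(A) RNA. The series title places the study in ferroptosis, an iron-dependent form of cell death, under nutrient stress, but the labels give no nutrient condition, no siRNA sequence or number per target, and no time after transfection. They also do not say that replicates came from separate cultures, so p-values measure the spread between these libraries, which may be technical.

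Library totals ran from 24159424 to 43792811 counts, and the targeted transcripts were at 8.75% of control for SLC25A1, 7.25% for ACLY and 3.72% for ACO1 in the cells where each was targeted. Where they were not targeted, group means in the knockdowns were between 93.7% and 112% of the control mean, and single libraries between 89.5% and 113.5%. SiACO1 replicate 3 stood apart: comparing its counts with those of its replicates gave a chi-square of 11.4 and 12.2 per degree of freedom, against 2.28 to 5.58 for the other replicate pairs, so member values in siACO1 are also given without it. Of the markers checked, KRT8, KRT18, KRT19 and VIM were abundant. EPCAM, CDH1 and CDH2 had at most 2 counts in a library and KRT7 at most 10, and PTPRC, CD3E and the acinar genes PRSS1, CPA1 and AMY2A had 0. The summed level of 6 epithelial markers was 2067 to 2181 CPM (counts scaled to a fixed library total) in siACO1 against 3607 to 3745 in siControl, and that of 5 fibroblast markers was 1546 to 1592 against 874.7 to 894.9. KRT8 and KRT18 carried the epithelial sum, at 2278 and 1325 CPM in siControl and 1280 and 773.8 CPM in siACO1. COL1A2 carried the fibroblast sum, while DCN, LUM and PDGFRA had at most 2 counts. In siSLC25A1 and siACLY the epithelial sums were 3125 to 3453 and 3824 to 3923 CPM, and the fibroblast sums 783.9 to 844.3 and 826 to 875.6. The sum of 3 mesenchymal markers was 3568 to 3716 CPM in siControl and 3918 to 3989 in siSLC25A1. It was 4372 to 4909 CPM in siACLY and 3535 to 3900 in siACO1. The part of these marker differences in the results below was not tested. In bulk RNA, fewer cells with a transcript and less of it per cell cannot be told apart.

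FOS (ENSG00000170345.10) lies on chromosome 14 at 75278774 to 75282230 on the plus strand, and FOSB (ENSG00000125740.15) on chromosome 19 at 45467995 to 45475179 on the plus strand. FOSL1 (ENSG00000175592.9) lies on chromosome 11 at 65892049 to 65900573 on the minus strand, and FOSL2 (ENSG00000075426.12) on chromosome 2 at 28392448 to 28417312 on the plus strand. JUN (ENSG00000177606.9) lies on chromosome 1 at 58780788 to 58784327 on the minus strand. JUNB (ENSG00000171223.6) and JUND (ENSG00000130522.6) are both on chromosome 19, JUNB at 12791496 to 12793315 on the plus strand and JUND at 18279760 to 18281622 on the minus strand. All 7 are protein-coding genes, placed by GENCODE release 29 on GRCh38. JUN, JUNB and JUND consist of 1 exon block each. Of the exon bases of JUNB, 14.2% overlap HOOK2 on the other strand, and 6.86% of the 31-base stretches of FOSL1 also occur in other genes, against at most 0.718% for the other members.

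Because the FOS and FOSB transcripts moved furthest and JUNB was the JUN gene that moved furthest in siACO1, the DNA just upstream of these genes is shown. That of JUND, which fell in siSLC25A1, stands beside it. The sequences are from RefSeq on GRCh38.p14, which had an entry for 6 of the 7 members (FOSL1 had none). Each is 120 bases long, is read 5′ to 3′ on the strand of the gene, and ends before the start of the gene in both RefSeq and GENCODE. Capitals mark matches to TGACGT (the core of the cAMP response element), CCAAT and TATAAA on either strand.
FOS, chr14:75278654-75278773, plus strand: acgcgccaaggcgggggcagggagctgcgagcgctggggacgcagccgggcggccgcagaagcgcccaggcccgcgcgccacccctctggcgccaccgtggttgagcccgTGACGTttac
FOSB, chr19:45467875-45467994, plus strand: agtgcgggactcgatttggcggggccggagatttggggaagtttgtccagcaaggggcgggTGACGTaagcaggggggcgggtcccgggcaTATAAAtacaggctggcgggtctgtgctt
JUNB, chr19:12791366-12791485, plus strand: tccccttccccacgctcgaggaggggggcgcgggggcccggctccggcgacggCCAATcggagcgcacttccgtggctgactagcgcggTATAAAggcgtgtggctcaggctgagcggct
JUND, chr19:18281623-18281742, minus strand: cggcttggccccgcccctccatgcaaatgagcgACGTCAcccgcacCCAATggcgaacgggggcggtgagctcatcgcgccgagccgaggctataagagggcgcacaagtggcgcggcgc

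The motif TGACGT stood 64 bases before the RefSeq start of FOS, 60 bases before that of FOSB and 66 bases before that of FOSL2. It was found in 7.1% of the 35116 promoters of the RefSeq table in windows of 250 bases before the start, searched on both strands. JUND had it 87 bases before its start on the strand opposite the gene, where the printed strand reads ACGTCA, and carried the full element TGACGTCA, found in 1.65% of promoters, 200 bases before its start. JUN had the AP-1-like element TGACATCA, found in 2.37% of promoters, 67 bases before its start, and CCAAT 87 bases before it. JUNB had CCAAT 67 bases and TATAAA 31 bases before its start, motifs held by 32.0% and 10.7% of promoters. FOS and FOSB had TATAAA 33 and 30 bases before their starts. The element TGACTCA (4.2% of promoters) and the CArG box (1.16%) were not in these 250-base windows of the 6 members. DNA further upstream was not searched, so the genes may carry either element there. The GENCODE starts of FOS, FOSL2 and JUN lie 54, 410 and 280 bases upstream of the RefSeq starts used to count these distances. These matches are letters in a window and say nothing of binding.

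FOS, the founding member of its family, is an activator once paired with a JUN protein. Its level, in CPM with library sizes adjusted by the TMM method (trimmed mean of M values), was 9.99, 10.8 and 6.15 in the siControl libraries, in the order of replicates 1 to 3, and 16.3, 13.4 and 14.7 in siSLC25A1. It was 26.4, 24.01 and 20.4 in siACLY and 55.8, 60.4 and 56.3 in siACO1. The 4 groups did not overlap and stood in the order siControl, siSLC25A1, siACLY, siACO1. Fitted log2 fold changes of FOS against siControl were 0.70 (SE 0.18) in siSLC25A1, 1.38 (SE 0.16) in siACLY and 2.66 (SE 0.16) in siACO1. In siACO1 that was the 9th highest of the 16197 genes, while in siACLY FOS ranked 237th and in siSLC25A1 447th. The siACO1 value was 2.67 without replicate 3.

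FOSB encodes a close relative of FOS, together with a shorter splice form that lacks the activating end of the protein, and the gene counts do not separate these forms. Its levels were 1.03, 1.33 and 0.929 CPM in siControl, from between 26 and 48 counts a library. They were 5.68, 5.47 and 3.69 CPM in siSLC25A1, and 12.6, 10.2 and 9.91 in siACLY. In siACO1 they were 23.99, 27.7 and 18.8 CPM. The groups again did not overlap and followed the order seen for FOS, and replicate 3 was the lowest library in every group. Log2 fold changes of FOSB were 2.16 (SE 0.24) in siSLC25A1, 3.30 (SE 0.21) in siACLY and 4.40 (SE 0.20) in siACO1, a fitted fold of 21.1. FOSB ranked 11th, 6th and 2nd from the highest of all tested genes in these comparisons. Without siACO1 replicate 3 the last value was 4.54. The ratio of FOS to FOSB per base of exon was 13.9 ± 2.62 (SD, n = 3) in siControl, 5.31 ± 1.36 in siSLC25A1, 3.73 ± 0.285 in siACLY and 4.29 ± 0.735 in siACO1, so the library ranges of the 3 knockdowns lay below those of the control.

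**Figure D1:**
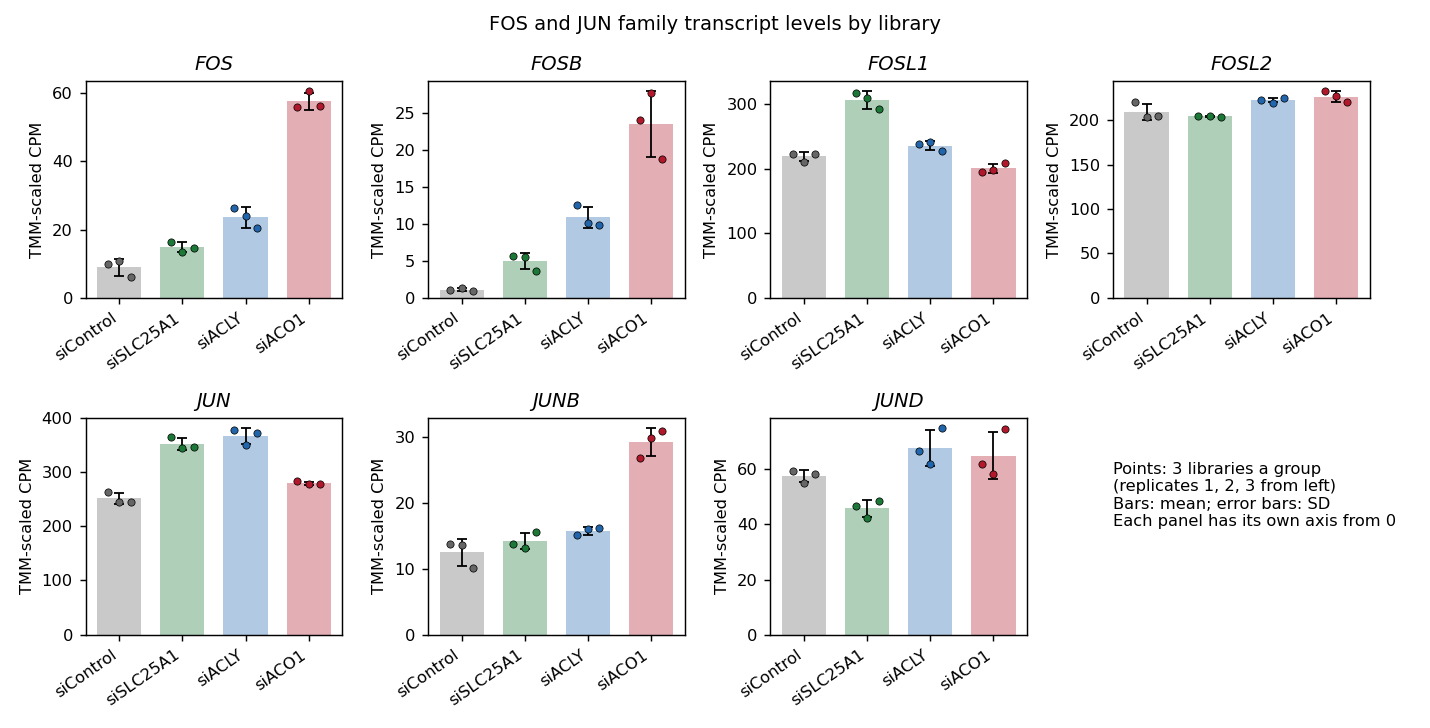
TMM-scaled CPM of the 7 family members in each of the 12 libraries (points, replicates 1 to 3 from left), with the mean (bar) and SD (error bar, n = 3) of each group and a separate axis from 0 for each gene. FOS and FOSB step up from siControl through siSLC25A1 and siACLY to siACO1, JUNB stands apart in siACO1, FOSL1 in siSLC25A1, and JUN is highest in siSLC25A1 and siACLY.

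FOSL1 did not follow FOS and FOSB. Its levels were 223.6, 211.1 and 223.3 CPM in siControl and 318.2, 309.7 and 292.1 in siSLC25A1. They were 237.9, 241.0 and 228.2 CPM in siACLY and 195.6, 198.6 and 208.2 in siACO1. SiSLC25A1 libraries were the highest and siACO1 libraries the lowest, and no knockdown overlapped with siControl. FOSL1 rose in siSLC25A1 (log2 fold change 0.48, SE 0.04, adjusted p 8.15e-10) and fell in siACO1 (-0.13, adjusted p 0.0181). In siACLY it did not pass the test (0.10, adjusted p 0.0527). The fall in siACO1 missed the threshold without siControl replicate 1 or 3 or siACO1 replicate 1 or 2, ranging from -0.15 to -0.11 over single libraries left out. It was -0.15 (adjusted p 0.00191) without siACO1 replicate 3, and -0.08 (adjusted p 0.125) with scaling by library totals only. FOSL1 in siACLY passed the test without siACLY replicate 3 (0.13, adjusted p 0.0424).

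FOSL2, also called FRA-2, is a further FOS relative without the strong activating domain of FOS, and its levels moved little. They were 220.2, 203.3 and 204.4 CPM in siControl, 204.6, 205.1 and 203.7 in siSLC25A1, 223.2, 219.8 and 225.1 in siACLY, and 232.4, 226.7 and 220.7 in siACO1. SiControl replicate 1 was the highest control and overlapped with the siACLY libraries, and siSLC25A1 lay within the control range. FOSL2 rose in siACO1 by a small amount (log2 fold change 0.11, adjusted p 0.0239), and had values of -0.03 (adjusted p 0.62) in siSLC25A1 and 0.09 (adjusted p 0.0796) in siACLY. The siACO1 call was lost without siControl replicate 2 or 3 or siACO1 replicate 1 or 2 (0.09 to 0.15 over single libraries left out), and was 0.13 (adjusted p 0.00449) without siACO1 replicate 3. Without siControl replicate 1 the siACLY value was 0.13 and passed the test (adjusted p 0.0269).

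JUN encodes the main partner of FOS proteins and a strong activator. JUN transcripts were at 262.8, 245.3 and 245.6 CPM in siControl, 364.8, 344.4 and 346.2 in siSLC25A1, 377.5, 349.6 and 372.1 in siACLY, and 282.6, 278.1 and 277.7 in siACO1. All 9 knockdown libraries were above the highest control, with those of siSLC25A1 and siACLY overlapping each other and lying above siACO1. JUN rose in siSLC25A1 (log2 fold change 0.49, SE 0.04, adjusted p 5.53e-10) and in siACLY (0.54, SE 0.04, adjusted p 1.92e-11), and less in siACO1 (0.15, adjusted p 0.00401). These 3 calls held under each of the 13 alternatives tried, with the siACO1 value between 0.14 and 0.20 and at 0.16 without replicate 3. JUN was thus lowest of the knockdowns where FOS and FOSB were highest.

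JUNB encodes a JUN protein that activates less strongly than JUN and can restrain it. Its levels were 13.8, 13.6 and 10.1 CPM in siControl, 13.7, 13.2 and 15.5 in siSLC25A1, 15.04, 16.1 and 16.2 in siACLY, and 26.8, 29.9 and 30.9 in siACO1. The siACO1 libraries stood clear of the other 9, siSLC25A1 overlapped with the control, and siACLY lay just above it. JUNB rose in siACO1 (log2 fold change 1.22, SE 0.09, adjusted p 1.72e-11) and in siACLY (0.32, SE 0.10, adjusted p 0.00874), and its value in siSLC25A1 was 0.17 (adjusted p 0.252). Without siControl replicate 3, the lowest control, the siACLY value was 0.20 and missed the threshold (adjusted p 0.0944), and the siSLC25A1 value was 0.05 (adjusted p 0.806). The siACO1 value was 1.17 (adjusted p 2.04e-12) without replicate 3.

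JUND encodes the JUN protein that is usually present in resting cells. It was at 59.3, 55.0 and 58.4 CPM in siControl and at 46.8, 42.4 and 48.5 in siSLC25A1, and all 3 siSLC25A1 libraries were below the lowest control. It was at 66.6, 61.9 and 75.0 CPM in siACLY, above the control range, and at 62.1, 58.2 and 74.8 in siACO1, which overlapped with it. JUND fell in siSLC25A1 (log2 fold change -0.33, SE 0.09, adjusted p 0.0166) and rose in siACLY (0.24, SE 0.09, adjusted p 0.0417), and its value in siACO1 was 0.18 (adjusted p 0.124). Replicate 3 was the highest library in both siACLY and siACO1, and without it the siACO1 value was 0.06 (adjusted p 0.474). The siSLC25A1 call was lost without siControl replicate 1 or 3 or siSLC25A1 replicate 1 or 2 (-0.37 to -0.27 over single libraries left out). The siACLY call was lost without any of the siControl libraries or siACLY replicate 1 or 3 (0.16 to 0.30). In siACO1 JUND passed the test without replicate 2 (0.25, adjusted p 0.0204).

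Among the 5 members that were tested, 2 rose and 1 fell in siSLC25A1, where 19.6% of all tested genes passed the test (10.3% higher and 9.27% lower). In siACLY 3 of the 5 rose, against 36.7% of all genes called (18.4% higher and 18.3% lower). In siACO1 3 rose and 1 fell, against 37.1% of all genes called (17.8% higher and 19.3% lower). With only 5 genes such counts carry little weight against these shares, and the sizes of the changes differed more than the counts did. JUNB in siACO1 ranked 255th and JUN in siACLY 1778th from the highest of 16197 genes, while the called rise of FOSL2 in siACO1 ranked 5867th. The 3 comparisons share the siControl libraries.

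**Figure D2:**
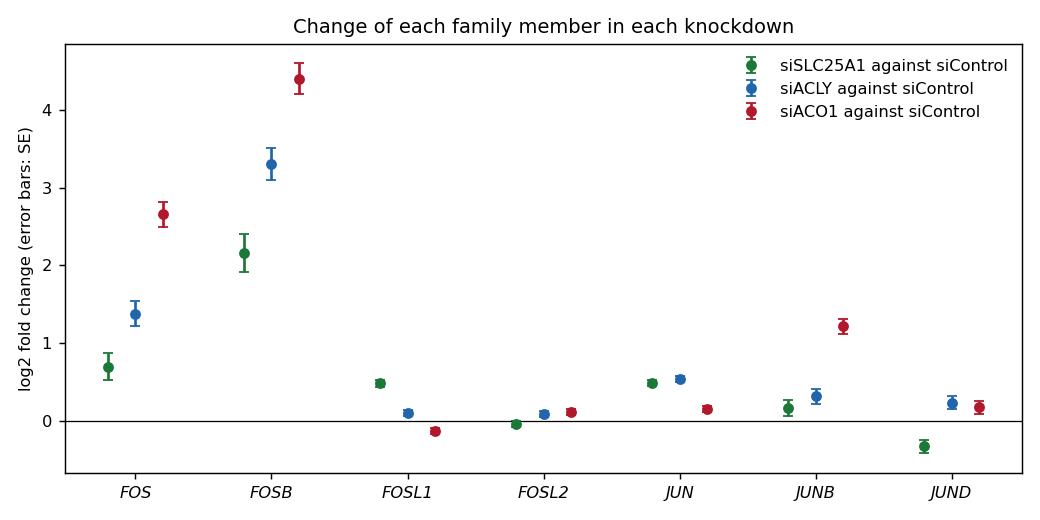
Log2 fold change against siControl (y axis) of each family member (x axis) in siSLC25A1, siACLY and siACO1, with error bars of 1 SE from the fit of all 12 libraries. FOS and FOSB increase from siSLC25A1 (0.70 and 2.16) to siACO1 (2.66 and 4.40), whereas FOSL1 goes from 0.48 in siSLC25A1 to -0.13 in siACO1.

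The knockdowns were then compared with each other. These contrasts leave out the control means, but the control libraries stayed in the fit that gave the scaling and the spread. FOSL1 was higher in siSLC25A1 than in siACLY (log2 difference 0.38, adjusted p 3.51e-08) and than in siACO1 (0.61, adjusted p 1.19e-12), and higher in siACLY than in siACO1 (0.23, adjusted p 5.06e-05). JUN did not pass the test between siSLC25A1 and siACLY (-0.06, adjusted p 0.292), and was higher in each of them than in siACO1 (0.33, adjusted p 1.34e-07, and 0.39, adjusted p 6.65e-09). JUNB was lower than in siACO1 in both siSLC25A1 (-1.05, adjusted p 2.47e-10) and siACLY (-0.90, adjusted p 2.97e-09), and its value between these was -0.15 (adjusted p 0.236). The FOSL1 and JUN transcripts therefore ran in the opposite order to JUNB between siACO1 and the other two.

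JUND was lower in siSLC25A1 than in siACLY (-0.56, adjusted p 0.000132) and than in siACO1 (-0.50, adjusted p 0.000261). Between siACLY and siACO1 its value was 0.06 (adjusted p 0.624), and it was 0.17 (adjusted p 0.0269) without siACO1 replicate 3. FOSL2 was lower in siSLC25A1 than in siACLY (-0.12, adjusted p 0.0171) and than in siACO1 (-0.15, adjusted p 0.00343), with -0.03 (adjusted p 0.653) between siACLY and siACO1. The FOSL2 call between siSLC25A1 and siACLY was lost without siSLC25A1 replicate 3 or siACLY replicate 1 or 3 (-0.13 to -0.12). The shares of all genes called were 33.8% between siSLC25A1 and siACLY, 42.1% between siSLC25A1 and siACO1, and 42.1% between siACLY and siACO1, beside 3, 5 and 3 of the 5 members. For description, FOS was lower by 0.68 in siSLC25A1 than in siACLY and by 1.28 in siACLY than in siACO1 on the log2 scale. FOSB was lower by 1.14 and 1.09 in the same comparisons.

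To compare levels between genes, counts were divided by the exon length of each gene, and each member was expressed as a share of the summed level of its family. FOSL1 made up 78.3% ± 0.988 of the FOS family in siControl (SD, n = 3), 82.7% ± 0.467 in siSLC25A1, 75.6% ± 0.527 in siACLY and 66.5% ± 1.44 in siACO1. It was the most abundant FOS family transcript per length in all 12 libraries. FOS and FOSB together made up 2.01% ± 0.562 in siControl, 2.77% ± 0.198 in siSLC25A1, 5.59% ± 0.597 in siACLY and 13.7% ± 0.953 in siACO1. FOSL2 held 19.7% ± 0.499 in siControl and 14.6% ± 0.524 in siSLC25A1, with 18.8% and 19.8% in siACLY and siACO1. Without scaling by length FOSL2 held 47.7%, 38.5%, 45.2% and 44.6% in the 4 groups in that order, and in siACO1 more than FOSL1 (39.5%). The ratio of FOSL1 to FOS per length went from 44.8 ± 15.4 in siControl, where the low FOS level of replicate 3 gave the widest spread, to 6.00 ± 0.355 in siACO1. Even in siACO1 the FOS transcript thus remained below FOSL1 and, at 17.8 ± 0.788 CPM per kilobase, below the 31.7 ± 0.818 of FOSL2.

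Within the JUN family, JUN held 65.3% ± 0.0719 in siControl, 75.4% ± 1.34 in siSLC25A1, 69.7% ± 1.38 in siACLY and 60.8% ± 2.58 in siACO1. JUND held 28.4% ± 0.939, 18.7% ± 0.903, 24.5% ± 1.41 and 26.8% ± 2.52 in the same order. JUNB was the smallest part in all groups, at 6.30% ± 0.950, 5.89% ± 0.474, 5.84% ± 0.397 and 12.4% ± 0.759. The ratio of JUN to JUNB per length was 10.53 ± 1.72 in siControl and 4.94 ± 0.422 in siACO1, without overlap. That of JUN to JUND was 2.30 ± 0.0743 in siControl and 4.04 ± 0.263 in siSLC25A1, likewise without overlap.

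The summed FOS family level was 148.4 ± 4.37 CPM per kilobase in siControl, 196.5 ± 7.50 in siSLC25A1, 165.3 ± 4.17 in siACLY and 160.1 ± 2.18 in siACO1. The group with the smallest FOS and FOSB gain, siSLC25A1, thus had the largest family total, carried by FOSL1. The JUN family total was 108.7 ± 4.23, 131.8 ± 4.24, 148.6 ± 6.96 and 129.9 ± 4.99 CPM per kilobase in the same order. No knockdown library of either family total fell within the control range. These shares and totals depend on the length used and are given as a description, with no test.

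**Figure D3:**
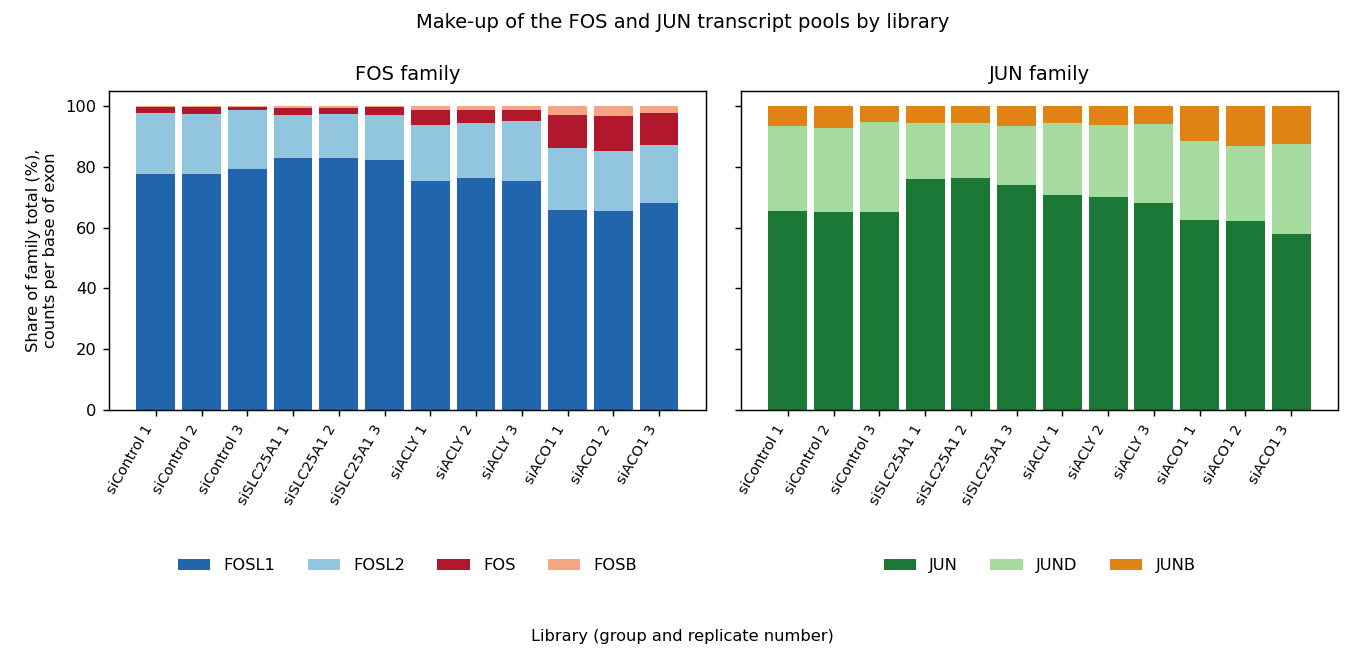
Share (%) of each member in the summed level of its family in each of the 12 libraries, with counts divided by exon length, for the FOS family (left) and the JUN family (right). FOS and FOSB widen to 13.7% on average in siACO1 while FOSL1 narrows to 66.5%, and JUNB widens to 12.4%.

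Partners outside the family include the ATF, BATF, JDP2 and MAF proteins, leucine zipper factors that pair with FOS or JUN. Of 14 listed partners 11 were tested, and BATF, MAF and NRL had no counts. In siSLC25A1 2 rose and 1 fell (median log2 fold change 0.19, against 0.00 over all tested genes). In siACLY 9 rose and 1 fell (median 0.43, against 0.01), and in siACO1 0 rose and 5 fell (median -0.13, against 0.01). Over all genes 19.6%, 36.7% and 37.1% were called in these comparisons. The siACLY count of 10 was 6 with DESeq2 and between 5 and 8 with single libraries left out, and it was 5 without siControl replicate 1 and 6 without siControl replicate 3.

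ATF3, an immediate early and stress-responsive factor that often represses, rose in siSLC25A1 (0.58, adjusted p 0.000212) and in siACLY (0.86, adjusted p 1.56e-07) and fell in siACO1 (-0.42, adjusted p 0.00483). Its libraries held 6.48, 5.80 and 6.65 CPM in siControl, 8.89, 8.89 and 10.49 in siSLC25A1, 11.1, 11.1 and 12.1 in siACLY, and 4.67, 4.23 and 5.17 in siACO1. The siACO1 libraries were the lowest of all for ATF3 and the highest for FOS, FOSB and JUNB. JDP2, a repressor that pairs with JUN, rose in siSLC25A1 (0.38, adjusted p 0.013) and siACLY (0.43, adjusted p 0.00208) and fell in siACO1 (-0.46, adjusted p 0.00205), and the siSLC25A1 call was lost without siControl replicate 2 or siSLC25A1 replicate 2 or 3. MAFK, a small MAF protein without an activating domain, fell in siSLC25A1 (-0.41, adjusted p 5.3e-05) and siACLY (-0.67, adjusted p 9.12e-09).

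In siACLY the largest partner rises were those of BATF3 (1.49, adjusted p 0.00108; 0.387 ± 0.0962 to 1.08 ± 0.0591 CPM) and BATF2 (1.33, adjusted p 0.00948), small factors known from immune cells, where they pair with JUN proteins. Both were near 1 CPM at most, and BATF2 missed the threshold without siControl replicate 1 or 3 or siACLY replicate 3. In siACO1 the falls included ATF2 (-0.48, adjusted p 7.62e-09; 67.3 ± 2.22 to 48.3 ± 1.20 CPM), a JUN partner at the cAMP response element, and MAFF (-0.51, adjusted p 5.83e-05). Both passed the test in the other direction in siACLY, by 0.13 (adjusted p 0.0385) for ATF2 and 0.23 (adjusted p 0.0381) for MAFF. Neither of these siACLY calls was below an adjusted p of 0.01, and they were not followed under the other alternatives.

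Signals reach the FOS and JUN genes through the MAP kinases and through SRF with its ELK and MRTF cofactors, CREB1 and the MEF2 factors. Of 27 listed genes 23 were tested. In siSLC25A1 5 rose and 2 fell (median 0.01), in siACLY 3 rose and 9 fell (median -0.06), and in siACO1 4 rose and 6 fell (median 0.00), all at transcript level, which does not measure the activity of a kinase. Beside these counts of 7, 12 and 10 called genes of 23, the shares of all genes called were 19.6%, 36.7% and 37.1%. MAP2K2, the kinase MEK2 that activates ERK, was at 574.0, 557.0 and 603.1 CPM in siControl and between 376.7 and 493.6 in the 9 knockdown libraries, without overlap. Its fall was -0.31 (adjusted p 2.97e-05) in siSLC25A1, -0.45 (adjusted p 3.66e-08) in siACLY and -0.54 (adjusted p 1.52e-09) in siACO1.

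ELK3, an SRF cofactor that can repress FOS, rose in siSLC25A1 (0.56, adjusted p 3.35e-10), as did MEF2A (0.30, adjusted p 0.000186). ELK3 also rose in siACO1 (0.25, adjusted p 8.11e-05) and had -0.13 in siACLY (adjusted p 0.0388). RPS6KA5, the kinase MSK1 that acts on CREB1 and on histone H3, rose in siACLY (0.79, adjusted p 1.08e-05; 3.77 ± 0.143 to 6.48 ± 0.501 CPM). RPS6KA2, a ribosomal S6 kinase downstream of ERK, rose in siACLY (0.47, adjusted p 0.0291) and fell in siACO1 (-1.15, adjusted p 4.05e-05), from 5.28 ± 0.0714 CPM in siControl to 2.39 ± 0.259. The siACLY call was lost without any siControl library or siACLY replicate 2 or 3. MAPK3, which encodes ERK1, rose in siACO1 (0.34, adjusted p 1.31e-06) and fell in siSLC25A1 (-0.27, adjusted p 0.000178).

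Turnover of FOS and JUN runs through AU-rich element binding proteins, which shorten or lengthen the life of the transcripts, and ubiquitin ligases, which remove the proteins. All 11 listed genes were tested. Both directions held 2 calls in siSLC25A1 (median 0.07), 2 rose and 3 fell in siACLY (median -0.01), and 4 rose and 3 fell in siACO1 (median 0.03), beside 19.6%, 36.7% and 37.1% of all genes called. ZFP36, the AU-rich element binding protein tristetraprolin that promotes decay of transcripts and is itself an immediate early gene, was at 12.8, 12.4 and 12.1 CPM in siControl and at 33.8, 32.3 and 34.3 in siACO1. It rose there by 1.43 (adjusted p 5.81e-15). Its siACLY value of 0.21 (adjusted p 0.0384) missed the threshold with DESeq2, without a filter on low counts, and without any single siControl library or siACLY replicate 1 or 2.

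ZFP36L1, a relative of ZFP36, rose in siACO1 (0.43, adjusted p 4.38e-09). ZFP36L2, another relative, fell in all 3 knockdowns (-0.29, -0.63 and -0.49, with adjusted p-values of 0.000121, 1.12e-10 and 1.19e-08 in siSLC25A1, siACLY and siACO1), from 55.1 ± 2.27 CPM in siControl. The 3 ZFP36 genes therefore did not move together. ELAVL1, which stabilises AU-rich transcripts, fell in siACLY (-0.19, adjusted p 0.000779). In siSLC25A1 the ubiquitin ligase COP1 (0.16, adjusted p 0.0483) and the decay factor HNRNPD (-0.15, adjusted p 0.0238) passed the test by small amounts. The COP1 call was lost with DESeq2, without a filter on low counts and without any 1 of the 6 libraries compared, and that of HNRNPD without siControl replicate 1 or 3 or siSLC25A1 replicate 2 or 3. The siSLC25A1 count of 4 fell to 1 without siControl or siSLC25A1 replicate 3 and to 2 without siControl replicate 1 or 2 or siSLC25A1 replicate 2. The siACLY count of 5 fell to 3 without any single siControl library or siACLY replicate 1 or 2.

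Of the 22 known AP-1 target genes listed, 9 had at most 4 counts in any library, namely MMP1, MMP3, MMP9, MMP10, MMP13, IL6, SPP1, IVL and TNC. Of the 13 tested, 8 rose and 1 fell in siSLC25A1 (median 0.21), 7 rose and 1 fell in siACLY (median 0.12), and 3 rose and 4 fell in siACO1 (median -0.09). Over all genes 10.3% were called higher and 9.27% lower in siSLC25A1, 18.4% and 18.3% in siACLY, and 17.8% and 19.3% in siACO1. The difference between the counts of the knockdowns was not tested.

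CXCL8, which encodes the neutrophil attractant interleukin-8, was at 114.0, 104.1 and 105.4 CPM in siControl, 236.1, 234.8 and 238.7 in siSLC25A1, 196.4, 198.1 and 204.6 in siACLY, and 114.0, 111.1 and 114.9 in siACO1. It rose in siSLC25A1 (1.13, SE 0.04, adjusted p 3.7e-18) and siACLY (0.89, SE 0.04, adjusted p 7.43e-16), and its value in siACO1 was 0.07 (adjusted p 0.196). PLAUR, the urokinase receptor, gave a like set of values, with 0.96 (adjusted p 6.29e-12) in siSLC25A1, 0.88 (adjusted p 1.22e-11) in siACLY and 0.09 (adjusted p 0.287) in siACO1. Both CXCL8 and PLAUR were higher in siSLC25A1 and siACLY than in the control in every library. With library totals alone CXCL8 passed the test in siACO1 at 0.12.

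LIF, a cytokine of the interleukin-6 group, rose in siACLY (0.72, adjusted p 3.07e-08) and fell in siACO1 (-0.84, adjusted p 7.28e-09), from 48.0 ± 3.54 CPM in siControl to 79.0 ± 3.71 and 26.9 ± 1.25. It also rose in siSLC25A1 (0.36, adjusted p 0.000788). TGFB1, a growth factor gene with AP-1 elements in its promoter, rose in siACO1 (0.46, adjusted p 3.35e-05) and in siSLC25A1 (0.68, adjusted p 2.69e-07). HMGA1, a chromatin protein gene, fell in siACO1 (-0.44, adjusted p 1.49e-09) and rose by small amounts in siSLC25A1 (0.17, adjusted p 0.00389) and siACLY (0.11, adjusted p 0.0368). The siACLY call of HMGA1 was lost without any single siControl library or siACLY replicate 2 or 3. IL11, a further cytokine of the interleukin-6 group, fell in siSLC25A1 (-0.86, adjusted p 0.00365; 2.55 ± 0.521 to 1.41 ± 0.332 CPM).

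Other immediate early genes were read beside the family. Of 20 tested among 23 listed, 8 rose and 1 fell in siSLC25A1 (median 0.14), 12 rose and 2 fell in siACLY (median 0.46), and 7 rose and 2 fell in siACO1 (median 0.06), beside 19.6%, 36.7% and 37.1% of all genes called. The siACLY rises include ARC (0.211 CPM in siControl, 0.526 in siACLY) and EGR4 (0.162 and 0.625), with at most 22 and 37 counts in a library. EGR4 was also among the siACO1 rises (0.484 CPM). Genes this low may have passed the filter on counts through the groups where they were high, so their rises carry no weight in these counts and medians. EGR1, a zinc finger factor, followed the order of FOS and FOSB, at 52.3 ± 7.50, 107 ± 7.91, 170 ± 8.71 and 214 ± 10.4 CPM in siControl, siSLC25A1, siACLY and siACO1. The means of EGR3 had the same order (3.10, 7.67, 9.21 and 10.9 CPM), but its siSLC25A1 libraries (6.425 to 8.854) overlapped those of siACLY (8.597 to 9.775). NR4A1, an orphan nuclear receptor gene, rose by 1.74 (adjusted p 2.25e-05) in siACLY and by 3.25 (adjusted p 5.64e-11) in siACO1, from 0.411 ± 0.121 CPM. CCN2, a matrix-associated growth regulator gene, rose in siSLC25A1 (0.75, adjusted p 0.0188), a call lost without siControl replicate 1 or siSLC25A1 replicate 1.

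**Figure D4:**
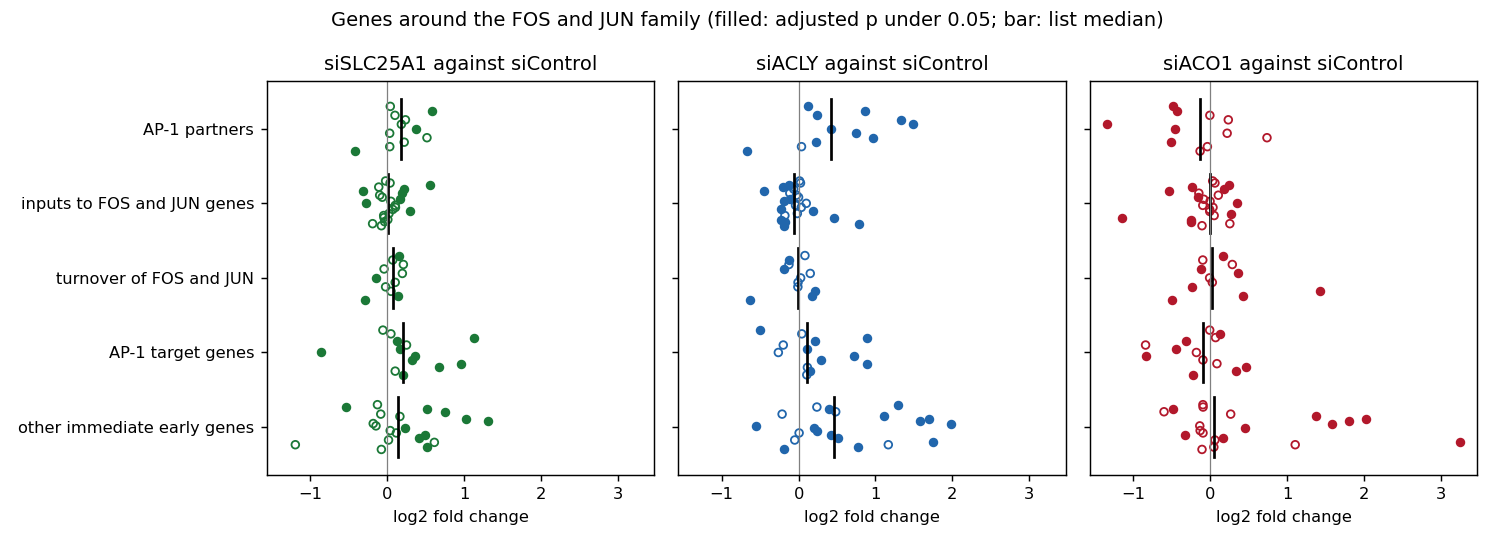
Log2 fold change against siControl (x axis) of each tested gene of 5 lists (rows) in siSLC25A1, siACLY and siACO1 (panels), with filled points for an adjusted p under 0.05 and a bar at the median of the list. AP-1 partners lie to the right in siACLY (median 0.43) and to the left in siACO1 (-0.13), and target genes lie to the right in siSLC25A1 (0.21) and siACLY (0.12) but not in siACO1 (-0.09).

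The genes whose levels across the 12 libraries were most like those of 3 members were found by Pearson's r of log2 CPM among the 12762 genes that averaged 1 CPM or more. Libraries of a group share their siRNA, so the 12 points form 4 clusters and r is only a measure of likeness. For FOSB they were EGR1 (0.988), KDM5B (0.984), PRKAA1 (0.981), EML4 (0.977) and PITPNC1 (0.967). KDM5B, a histone demethylase gene, went from 68.0 CPM in siControl through 82.7 and 89.9 to 102 in siACO1, a far smaller span than that of FOSB. For FOS they were TMX4 (0.987), NR4A1 (0.979), VAMP3 (0.978), SLC38A2 (0.975) and CASP8 (0.972). TMX4, which encodes a membrane thioredoxin of the endoplasmic reticulum, stood at 45.6, 57.0, 81.4 and 131 CPM in the order siControl, siSLC25A1, siACLY and siACO1.

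For FOSL1 the most alike were UBE2C (0.992), PDLIM7 (0.975), RIN2 (0.969), ENC1 (0.968) and CBFB (0.962). UBE2C, a ubiquitin-conjugating enzyme gene of mitosis, stood at 159 CPM in siControl, 217 in siSLC25A1, 169 in siACLY and 149.8 in siACO1. ENC1, an actin-binding protein gene, stood at 105, 205, 114 and 71.7 CPM in the same order. No gene appeared in more than 1 of these 3 lists. With Spearman's correlation in place of Pearson's, 2 of the 5 genes named for FOSB, 2 of those for FOS and 0 of those for FOSL1 were again among the 5 most alike.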

How the data were processed

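The authors deposited 1 table of raw counts per gene for the 12 libraries, per the file headers: whole numbers, not normalized. The submitters' processing notes name CASAVA, FastQC, Trim Galore, STAR 2.7.0e and DESeq2, and the builds GRCh38 and GRCm39, without roles. The counting tool, the annotation and the strand setting of the counting are not given in the sources used here, so reads of JUNB and of HOOK2 may not have been told apart.

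Genes kept by filterByExpr were scaled by TMM and fitted in edgeR 4.0.16 (R 4.3.3, limma 3.58.1) with a robust quasi-likelihood model of the 4 groups (8 residual degrees of freedom). Two-sided tests were adjusted by Benjamini-Hochberg over all 16197 genes, and a gene was called below an adjusted p of 0.05. Adjusted p-values in the text come from edgeR unless DESeq2 (1.42.0) is named. The fit was also run on simulated counts with the same spread in every library. No library there was made to stand apart as siACO1 replicate 3 did, so that case was not checked. CPM are relative to each library, so a change in total RNA would not be seen. Lengths are exon unions of GENCODE release 29 (GRCh38), while identifiers of the table, those of the members included, carry later versions, so lengths may differ from those of the annotation counted. Symbols matched 62700 of 70116 identifiers.

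The members and gene lists were chosen with earlier results of these data known. Named genes are the members, the targets, per list and knockdown the 3 called genes with the largest change whose higher group averaged 1 CPM or more, and the 5 genes most like FOSB, FOS and FOSL1. Values of a named gene in a comparison where it was not among those 3, ARC and EGR4, and the genes at or near 0 counts were added after their values were seen. Alternatives were other scalings, DESeq2, filters, the 2 groups alone, a replicate block, a stricter threshold, other lengths, Spearman's correlation, and leaving out each library.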

Additional observations from a re-analysis of the deposited data

How the results depend on the processing

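Under the alternatives tried, FOS, FOSB and JUN kept their direction against siControl, and the calls of FOSL1 and JUN in siSLC25A1, JUN in siACLY and JUN and JUNB in siACO1 held. Scaling by library totals alone put the median of all genes at 0.051 in siACLY (0.008 with TMM) and 0.055 in siACO1 (0.006 with TMM). The share of higher genes among calls was then 61.0% and 59.5%, against 50.1% and 47.9%. Under it FOSL1 (0.148) and FOSL2 (0.133) in siACLY and JUND in siACO1 (0.225) passed the test and FOSL1 in siACO1 (-0.078) did not. With at least 10 counts in every library FOSL1 (0.117) and FOSL2 (0.102) passed in siACLY, as they did with only the 2 groups compared (0.102 and 0.087). Without a filter FOSL2 in siACO1 (0.110) missed and JUND in siACO1 (0.174) passed, and with only the 2 groups compared FOSL2 in siACO1 (0.114) missed. For these the cause was not tested.

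At an adjusted p under 0.01 there were 1941 calls in siSLC25A1 against 3173, 6 AP-1 partners in siACLY (6 with DESeq2), and 1 turnover gene in siSLC25A1 and 3 in siACLY (2 and 3 without a filter). With single libraries left out, turnover calls ran from 1 to 4 in siSLC25A1 and 3 to 5 in siACLY, and AP-1 partner calls in siACLY from 5 to 8. Log2 fold changes then ran from 0.077 to 0.127 for FOSL1 and 0.068 to 0.128 for FOSL2 in siACLY, -0.154 to -0.110 for FOSL1 and 0.093 to 0.152 for FOSL2 in siACO1, 0.199 to 0.393 for JUNB in siACLY, and -0.367 to -0.273, 0.162 to 0.295 and 0.062 to 0.252 for JUND in siSLC25A1, siACLY and siACO1. FOSL2 ran from -0.055 to 0.004 in siSLC25A1, changing sign without siControl replicate 1, and from -0.132 to -0.116 between siSLC25A1 and siACLY. JUND between siACLY and siACO1 ran from -0.020 to 0.174, changing sign without siACLY replicate 3 (-0.016) or siACO1 replicate 2 (-0.020).

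Without scaling by length, FOSL1 made up 50.01%, 57.8%, 47.8% and 39.5% of its family in siControl, siSLC25A1, siACLY and siACO1, JUN 78.2%, 85.4%, 81.4% and 74.8%, JUNB 3.88%, 3.43%, 3.51% and 7.81%, JUND 17.9%, 11.1%, 15.1% and 17.4%, and FOS with FOSB 3.71%, 6.99% and 15.9% in the knockdowns. By the longest transcript FOSL1 held 75.0% in siACLY and 64.4% in siACO1, and FOS with FOSB 2.67%, 3.67%, 7.33% and 17.6% in the 4 groups. The order of the groups for FOS with FOSB was the same under each length.

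Over all tested genes, replicate numbers shared by the groups showed little pairing of the libraries. Deviations from group means of same-numbered libraries correlated by -0.034 to 0.067 over 18 pairs. Of 12 libraries, 6 were closest to their own number among the 3 replicate numbers, and this count was not tested against what unpaired libraries would give. Among the members, FOSB was lowest in replicate 3, JUN highest in replicate 1 and JUND lowest in replicate 2 in all 4 groups. FOS, FOSL1, FOSL2 and JUNB had no such replicate, and pairing in single genes was not tested. With a replicate block, calls against siControl numbered 3270, 6038 and 6093 in siSLC25A1, siACLY and siACO1, against 3173, 5944 and 6008, and JUND in siACO1 passed the test (0.169, adjusted p 0.0124), the only call of a tested member that changed, while COP1 in siSLC25A1 missed it. Counting depth limits FOSB in siControl, at 26 to 48 counts, and BATF2, BATF3 and NR4A1, near or under 1 CPM there.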

Other observations

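Several genes often read beside the FOS and JUN family were at or near 0 in the count table in all 4 groups, whatever the siRNA. IER3, an immediate early gene and survival factor, had 0 counts in all 12 libraries. MEF2D, a MADS-box factor that acts on the JUN promoter, had at most 1 count, and RPS6KA1 and MAPK10, a ribosomal S6 kinase and a JUN kinase gene, at most 2. EGR2 had at most 13 counts and NR4A2 at most 11 in any library, while their relatives EGR1 and NR4A1 were tested. Why these counts were so low was not tested, and they do not show that the genes were silent. These genes were named after their counts were seen.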
